A study of Mus musculus with 9 samples.

Results

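Sprr1a, Uchl1, Clu and Lcn2 are 4 mouse genes whose transcripts are often described as responding to stress in the heart. They were chosen by measured values, as genes high after pressure load, and are 4 of the 20239 genes with 1 symbol on the array. Each has 1 probe set. All 4 passed the filter on low values that left 12597 genes, Sprr1a with 8 of the 9 arrays above the filter's log2 value of 5.659 and the other 3 genes with all 9. Because pressure load chose the genes, their levels in constricted against sham hearts are given as a description, with no test.

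RNA came from whole hearts of male C57BL/6 mice, 3 in each of 3 groups, and was measured on 9 Affymetrix arrays, 1 per heart. At 8 weeks of age every mouse received an adeno-associated virus (AAV) with its cargo under an MLC (myosin light chain) promoter, a cardiomyocyte promoter. Surgery came 4 weeks after the virus and the hearts were collected 4 weeks after surgery. The TAC-HDAC4-NT group received the amino-terminal part of histone deacetylase 4, amino acids 1 to 201, and transaortic constriction (TAC), which narrows the aorta and loads the left ventricle with pressure. The TAC-luciferase group received luciferase, a control protein, and the same constriction. The sham group received luciferase and a sham operation. No group combined HDAC4-NT with sham surgery, so the fragment's effect without load was not measured here. In whole hearts, fewer cells of a type and less RNA per cell cannot be told apart.

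Sprr1a encodes a small proline-rich protein, a precursor of the cornified envelope of stratified epithelia, which is also induced in cardiomyocytes by cytokines that signal through gp130 and in injured neurons. Uchl1 encodes a deubiquitinase that is abundant in neurons and binds free ubiquitin. Clu encodes clusterin, a secreted chaperone found in plasma and many tissues. Lcn2 encodes lipocalin 2, a secreted protein that binds iron-carrying siderophores, is stored in neutrophil granules and is a target of NF-kB and STAT3 signalling.

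The promoters of Sprr1a, Uchl1 and Lcn2 are shown, genes that followed different patterns over the hearts. The promoter set used here had no entry for Clu. Each is the 250 bases before the gene's start, from RefSeq on GRCm38.p6, read 5' to 3' on the gene's strand. Sprr1a lies at chr3:92485882-92486131 on the minus strand, Uchl1 at chr5:66675871-66676120 on the plus strand and Lcn2 at chr2:32387740-32387989 on the minus strand. Capitals mark matches to 7 motifs searched on both strands.
Sprr1a: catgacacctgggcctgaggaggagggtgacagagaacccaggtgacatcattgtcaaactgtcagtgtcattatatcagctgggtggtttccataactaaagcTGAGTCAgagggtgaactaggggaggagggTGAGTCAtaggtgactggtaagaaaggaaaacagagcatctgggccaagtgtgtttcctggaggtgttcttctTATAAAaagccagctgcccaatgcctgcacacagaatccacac
Uchl1: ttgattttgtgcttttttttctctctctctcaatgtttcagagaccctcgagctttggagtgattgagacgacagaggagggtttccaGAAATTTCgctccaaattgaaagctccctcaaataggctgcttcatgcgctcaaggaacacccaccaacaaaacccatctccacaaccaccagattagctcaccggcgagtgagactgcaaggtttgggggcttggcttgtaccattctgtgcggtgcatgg
Lcn2: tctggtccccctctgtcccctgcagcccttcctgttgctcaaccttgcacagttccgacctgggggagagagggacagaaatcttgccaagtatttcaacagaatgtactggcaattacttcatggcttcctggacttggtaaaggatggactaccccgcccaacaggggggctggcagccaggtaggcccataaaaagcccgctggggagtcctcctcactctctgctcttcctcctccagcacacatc
The motifs were AP-1 (TGANTCA), the cAMP response element (TGACGNCA), STAT (TTCNNNGAA), the heat shock element (GAANNTTC), MEF2 (CTA and TAG with any 4 bases between), NF-kB (GGGA and CC with any 4 bases between) and the TATA box (TATAAA), and no matches overlapped. The Sprr1a window held the AP-1 letters TGAGTCA at 146 to 140 and at 116 to 110 bases before the start, and the TATA box letters at 43 to 38 bases. Of 32851 promoter windows of this length, 6.75% held at least 1 AP-1 match, 0.338% held 2 or more and 12.4% held a TATA box match. The Uchl1 window held the heat shock element letters GAAATTTC at 162 to 155 bases, as some match did in 6.69% of windows. The Lcn2 window held none of the 7, where 7.02% of windows held a STAT match, 17.6% an NF-kB match, 2.75% a cAMP response element and 3.2% a MEF2 match. A match describes these letters and is no evidence of binding.

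All 10 cardiomyocyte markers lay above the filter value on every array, with a mean log2 level of 13.00 to 13.14 per heart. The TAC-luciferase group was not uniform. On the second principal component its hearts 2 and 3 lay at 16.2 and 13.8, against -4.79 for its heart 1, -11.9 to -8.05 for the TAC-HDAC4-NT hearts and -0.92 to 5.63 for the sham hearts. TAC-luciferase heart 3 also had the highest mean of 4 atrial genes, 8.07, against 5.94 to 6.94 in TAC-HDAC4-NT hearts and 6.43 to 7.49 in sham hearts. The first number of the sample code in the labels, which they do not explain, splits this group the same way. It is 8 for TAC-luciferase heart 1 and 9 for hearts 2 and 3, 3 for TAC-HDAC4-NT heart 1 and 4 for its hearts 2 and 3, and 12 for all sham hearts. No code is shared between groups, so code and group cannot be told apart. Where leaving out TAC-luciferase hearts 2 and 3 ended a call or moved a value of a named gene by over 1.5 times, the value without them is given. Levels are the deposited log2 values, a difference of 1 being a 2-fold change. Differences come from 1 limma model over all 9 arrays, and a gene was called when its p, adjusted over all tested genes (Benjamini-Hochberg), was under 0.05. The comparisons share groups, so their values stand side by side and are not independent.

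**Figure D1:**
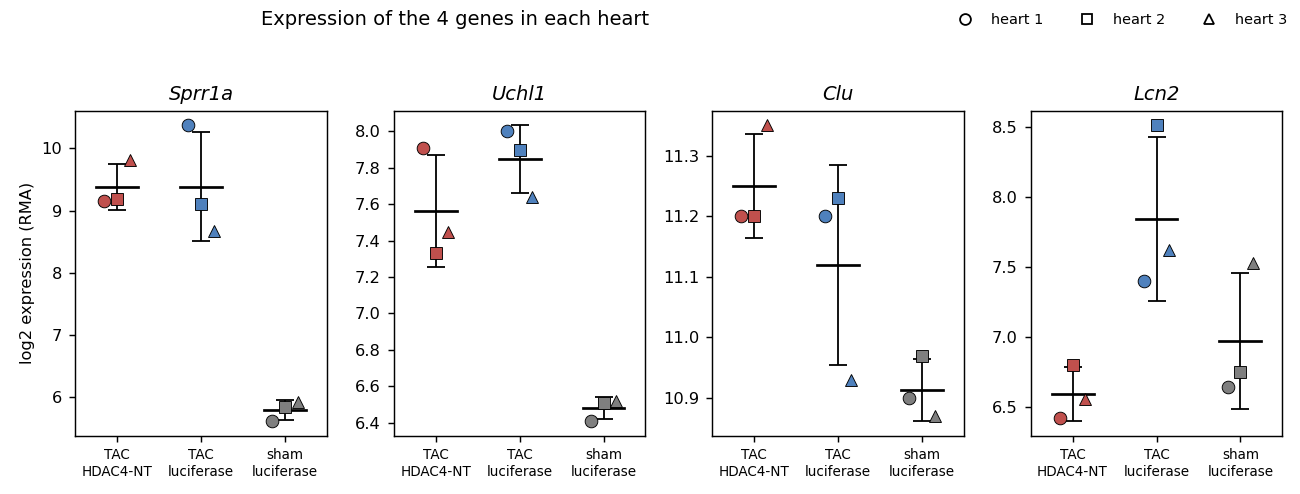
Log2 level of Sprr1a, Uchl1, Clu and Lcn2 in each heart, 1 panel per gene with its own axis range. Each marker is 1 heart (circle, square and triangle for hearts 1, 2 and 3), lines are group means and bars are SDs, n = 3. For Sprr1a and Uchl1 all 6 constricted hearts lie above all 3 sham hearts, while for Lcn2 the TAC-HDAC4-NT hearts lie below every TAC-luciferase heart.

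Sprr1a had the largest difference between constricted and sham hearts of the 4 genes. Its log2 level was 9.15, 9.19 and 9.81 in the TAC-HDAC4-NT hearts, 10.37, 9.11 and 8.68 in the TAC-luciferase hearts and 5.62, 5.84 and 5.93 in the sham hearts. All 6 constricted hearts lay far above the sham hearts, the nearest by 2.75. In sham hearts Sprr1a ranked near the middle of its array, above 37.4% to 52.0% of probe sets, and in constricted hearts it ranked above 91.1% to 97.7%. It was 12.02-fold higher in TAC-HDAC4-NT than in sham hearts (log2 difference 3.59, SE 0.37), the rank 3 difference of 12597 genes. It was 12.05-fold higher in TAC-luciferase than in sham hearts (3.59, SE 0.37), rank 2 in that comparison. Since array summaries compress low values and the sham level was low, these folds may be understated.

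The spread of Sprr1a lay within the TAC-luciferase group. Its heart 1 was 23.9-fold above the sham mean, and hearts 2 and 3 were 9.93-fold and 7.37-fold above it. The TAC-HDAC4-NT hearts, at 10.2-fold, 10.5-fold and 16.1-fold, fell inside that range. Group SDs of the log2 level were 0.37 in TAC-HDAC4-NT, 0.88 in TAC-luciferase and 0.16 in sham. Without TAC-luciferase hearts 2 and 3, the TAC-luciferase difference from sham was 4.58.

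Uchl1 was higher in both constricted groups by a smaller amount. Its log2 level was 7.91, 7.33 and 7.45 in the TAC-HDAC4-NT hearts, 8.00, 7.90 and 7.64 in the TAC-luciferase hearts and 6.41, 6.51 and 6.52 in the sham hearts. The constricted hearts again lay above all sham hearts, and the sham hearts were tight, with an SD of 0.06. TAC-HDAC4-NT hearts were 2.12-fold above sham hearts (1.08, SE 0.14) and TAC-luciferase hearts 2.58-fold (1.37, SE 0.14), ranks 101 and 71 of the 12597 genes. With TAC-luciferase hearts 2 and 3 left out, the TAC-luciferase difference was 1.52.

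Clu was strongly expressed in every heart and differed little with load. Its log2 level was 11.20, 11.20 and 11.35 in the TAC-HDAC4-NT hearts, 11.20, 11.23 and 10.93 in the TAC-luciferase hearts and 10.90, 10.97 and 10.87 in the sham hearts. The probe set ranked above 98.5% to 99.1% of the others on every array. TAC-HDAC4-NT hearts lay above all sham hearts by at least 0.23, a 1.27-fold difference in the means (0.34, SE 0.08). In TAC-luciferase hearts it was 1.16-fold (0.21, SE 0.08), and heart 3, the heart with the highest atrial mean, lay within the sham range. Without heart 3 that difference was 0.31, and without hearts 2 and 3 it was 0.29. In the other groups, sham heart 2 and TAC-HDAC4-NT heart 3 had the highest atrial mean and also the highest Clu level of their group. An alternative fit took the atrial mean as a covariate. Its value for Clu is not given here, so nothing is concluded on the atrial share. On these arrays Clu was not strongly raised by load.

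Lcn2 had a higher mean than sham in TAC-luciferase hearts, unevenly over them, and a lower mean in TAC-HDAC4-NT hearts. Its log2 level was 6.42, 6.80 and 6.56 in the TAC-HDAC4-NT hearts, 7.40, 8.51 and 7.62 in the TAC-luciferase hearts and 6.64, 6.75 and 7.53 in the sham hearts. TAC-luciferase heart 2 was the highest of all, and sham heart 3 lay above TAC-luciferase heart 1. TAC-HDAC4-NT hearts were 1.30-fold lower than sham hearts (-0.38, SE 0.30), and without sham heart 3 the difference was -0.10. TAC-luciferase hearts were 1.83-fold higher than sham hearts (0.87, SE 0.30), with groups that overlapped. This value was 0.54 without TAC-luciferase heart 2, 1.15 without sham heart 3 and 0.43 without TAC-luciferase hearts 2 and 3. The description as raised by load therefore did not hold for Lcn2 in TAC-HDAC4-NT hearts.

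In TAC-HDAC4-NT against sham, 3 of the 4 genes had groups that did not overlap, all higher, where 39.7% of all tested genes had such groups (18.3% higher and 21.5% lower). For TAC-luciferase against sham the count was 2 of 4, both higher, against 37.4% of all tested genes (15.9% higher and 21.6% lower). The median difference of the 4 genes was 0.71 in TAC-HDAC4-NT and 1.12 in TAC-luciferase, beside -0.012 over all tested genes in both. Nothing follows from these counts, since load chose the genes.

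**Figure D2:**
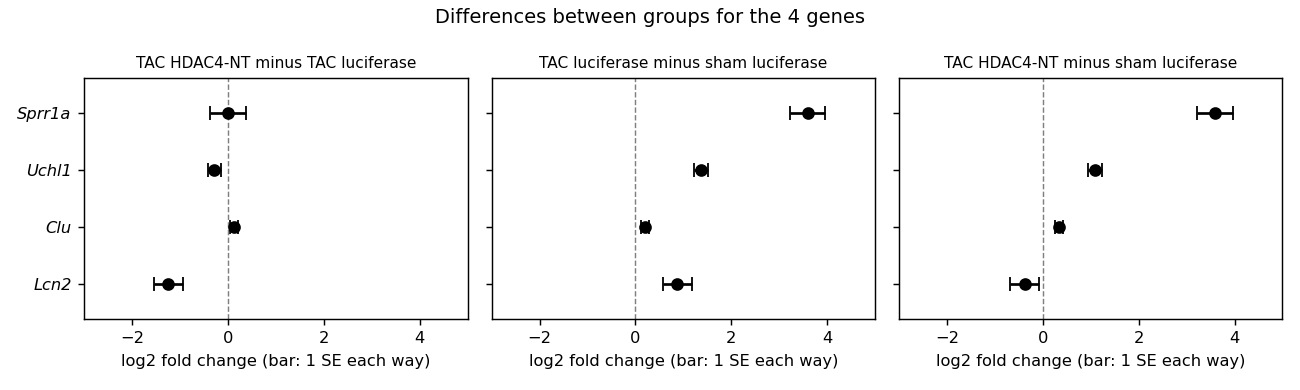
Log2 difference of each gene in the 3 comparisons, with bars of 1 SE each way from the limma model over 9 arrays. Sprr1a and Uchl1 lie well to the right of 0 in both comparisons with sham, and Lcn2 lies left of 0 in TAC-HDAC4-NT against TAC-luciferase, at -1.25.

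The comparison of TAC-HDAC4-NT with TAC-luciferase asks what the HDAC4 fragment changed under load. It was not used to choose the genes, but it shares the TAC-luciferase hearts with the comparison that was. None of the 4 genes was called by limma, and 1 of them, Lcn2, had an unadjusted p under 0.05. Over all tested genes 0.254% were called, 0.143% higher and 0.111% lower. At an unadjusted p under 0.05 in limma, 1807 of the 12597 tested genes passed in this comparison. The number was 4256 in TAC-HDAC4-NT against sham and 4689 in TAC-luciferase against sham, the background for such counts below. The median difference of the 4 genes was -0.14, against 0.004 over all tested genes.

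Sprr1a had a mean log2 level of 9.38 ± 0.37 in TAC-HDAC4-NT and 9.38 ± 0.88 in TAC-luciferase hearts (SD, n = 3 each). The limma difference was -0.003, with a 95% interval of -0.84 to 0.83, and the groups overlapped. With 3 hearts a group, any difference inside this interval remained compatible with the data. Its sign depended on the hearts included, from -0.36 without TAC-luciferase heart 3 to 0.49 without TAC-luciferase heart 1 (limma adjusted p 0.247).

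Uchl1 stood at 7.56 ± 0.31 in TAC-HDAC4-NT and 7.85 ± 0.18 in TAC-luciferase hearts. The difference was -0.28 (SE 0.14, 95% interval -0.61 to 0.04, limma adjusted p 0.411). TAC-HDAC4-NT hearts 2 and 3 lay below every TAC-luciferase heart, and heart 1, at 7.91, lay inside their range. Leaving out 1 heart at a time gave -0.46 without TAC-HDAC4-NT heart 1 and -0.17 without TAC-HDAC4-NT heart 2, and it was -0.44 without TAC-luciferase hearts 2 and 3. For Clu the means were 11.25 ± 0.09 and 11.12 ± 0.17 in the same groups, a difference of 0.13 (95% interval -0.06 to 0.32, limma adjusted p 0.546). It was 0.034 without TAC-luciferase heart 3, 0.08 without TAC-HDAC4-NT heart 3 and 0.048 without TAC-luciferase hearts 2 and 3.

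Lcn2 differed most of the 4 genes between the constricted groups. Its mean was 6.59 ± 0.19 in TAC-HDAC4-NT and 7.84 ± 0.59 in TAC-luciferase hearts (SD, n = 3 each), a 2.38-fold lower level (-1.25, SE 0.30, 95% interval -1.93 to -0.57). The groups did not overlap, and a gap of 0.60 separated the highest TAC-HDAC4-NT heart from the lowest TAC-luciferase heart. Groups that did not overlap, with a gap of any size, were found for 20.4% of tested genes (11.6% higher and 8.8% lower). The difference had rank 25 among those below 0, but its adjusted p in limma was 0.1 (unadjusted 0.0024), so the gene was not called. Whether it was called depended on the hearts included. Without TAC-luciferase heart 1 the difference was -1.47 and passed (limma adjusted p 0.0283), and without TAC-luciferase heart 2 it was -0.92 (0.225). Over all single hearts left out, the limma adjusted p reached 0.338. Without TAC-luciferase hearts 2 and 3 the difference was -0.81.

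The relatives of Sprr1a were low in every group. The small proline-rich proteins and other precursors of the cornified envelope gave 17 measured genes besides Sprr1a, of which 12 stayed below the filter. None of the 5 tested was called by limma in any comparison, and 0 had an unadjusted p under 0.05. Sprr1b, the gene most like Sprr1a by name, averaged 5.55 in TAC-HDAC4-NT, 5.55 in TAC-luciferase and 5.44 in sham hearts. All its values were below the filter value of 5.659, but all constricted hearts (5.48 to 5.64) lay above all sham hearts (5.42 to 5.47). Its TAC-luciferase values, 5.64, 5.53 and 5.48, had the same order over hearts as Sprr1a, for a reason that was not tested. Sprr3 averaged 5.40, 5.36 and 5.41 in the same 3 groups. Keratinocyte markers had a summed linear level of 386 to 389 in TAC-HDAC4-NT, 387 to 389 in TAC-luciferase and 382 to 390 in sham hearts. Of the 8 measured, 5 stayed below the filter. None of the 3 keratinocyte markers tested was called by limma, and 1 had an unadjusted p under 0.05, in TAC-HDAC4-NT against sham. The part of keratinocytes in the Sprr1a level was not tested.

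Sprr1a was also set beside load markers of cardiomyocytes. Of 13 such genes, 12 rose in TAC-HDAC4-NT and 12 rose in TAC-luciferase hearts against sham, with median differences of 1.05 and 1.21. By limma 22.8% of all tested genes were called in TAC-HDAC4-NT against sham (10.5% higher and 12.3% lower) and 26.1% in TAC-luciferase against sham (11.2% higher and 14.9% lower). Nppa, which encodes atrial natriuretic peptide, rose by 2.20 in TAC-HDAC4-NT and by 2.04 in TAC-luciferase hearts (adjusted p 8.8e-07 and 2.05e-06). Fhl1, a LIM protein of stretched muscle, rose by 1.57 and 1.49, and Ccn2, a matricellular growth factor, by 1.92 and 2.68. Without TAC-luciferase hearts 2 and 3 the TAC-luciferase count was again 12 of 13. None of the 13 was called between the constricted groups (3 at an unadjusted p under 0.05), and 1 was called lower without TAC-luciferase heart 1.

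Among nerve injury and regeneration genes, a setting in which Sprr1a is well known, Ankrd1 and Atf3 stood out. Ankrd1, an ankyrin repeat protein of the sarcomere, rose by 0.91 in TAC-HDAC4-NT and by 0.86 in TAC-luciferase hearts against sham (limma adjusted p 0.000238 and 0.000281). Its value was 13.64 in all 3 TAC-HDAC4-NT and 13.59 in all 3 TAC-luciferase hearts, near the top of the range, against 12.50, 12.96 and 12.72 in sham hearts. Every array holds the same set of values, so its value is set by its rank there, which limits how exactly these differences and their spread are known. Atf3, a stress-induced transcription factor, lay at 5.87, 5.93 and 6.41 in TAC-HDAC4-NT, 8.03, 8.98 and 8.76 in TAC-luciferase and 6.15, 6.06 and 6.41 in sham hearts. It fell by 2.52 in TAC-HDAC4-NT against TAC-luciferase (limma adjusted p 0.00667), a call lost without TAC-HDAC4-NT heart 1 or 2 (up to 0.0611). The difference was -1.96 without TAC-luciferase hearts 2 and 3 (0.0302). Of the 10 tested genes of this list besides Sprr1a, 1 rose and 1 fell in TAC-HDAC4-NT, and 3 rose and 2 fell in TAC-luciferase hearts against sham. Ankrd1 rose in both groups, and Csrp3 and Atf3 rose in TAC-luciferase hearts only. Ankrd1 and Csrp3 are also counted among the load markers above. Jun, Npy, Stmn2, Crmp1 and Basp1 were not called in any comparison. Of the 2 that fell in TAC-luciferase, Fgf13 lost the call without any 1 of TAC-luciferase hearts 2 and 3 and sham hearts 1 and 3 (limma adjusted p up to 0.0676), and Gadd45a without any 1 of TAC-luciferase heart 2 and sham hearts 1 and 2 (up to 0.0694). Without TAC-luciferase hearts 2 and 3 the counts were 3 and 0.

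The other ubiquitin hydrolases differed little between the groups. Of the 8 tested genes of ubiquitin carboxyl-terminal hydrolases and ubiquitin pools, none was called between the constricted groups (0 at an unadjusted p under 0.05) or in TAC-luciferase against sham (2 at that p, and 1 called higher without TAC-HDAC4-NT heart 2). Uchl3, a close paralog, stood at 0.14 in TAC-HDAC4-NT against TAC-luciferase and at -0.02 and -0.16 in these groups against sham, with 0.38 and -0.40 for the first and the last without TAC-luciferase hearts 2 and 3. Uchl5, which works at the proteasome, stood at -0.07, -0.10 and -0.04 in the same order. Bap1, a nuclear deubiquitinase, fell by 0.22 in TAC-HDAC4-NT against sham (limma adjusted p 0.0151), a call lost without TAC-HDAC4-NT heart 1 or 3 (up to 0.0608).

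Neuron markers were near the bottom of the range in all groups. Their summed linear level was 608 to 610 in TAC-HDAC4-NT, 601 to 611 in TAC-luciferase and 596 to 613 in sham hearts, 2 of 13 lay above the filter value on every array, and none of the 3 tested was called (0 at an unadjusted p under 0.05). Tubb3, the neuronal tubulin, stood at 0.14 between the constricted groups and at 0.16 and 0.03 in TAC-HDAC4-NT and TAC-luciferase against sham. Schwann cell markers had a summed linear level of 418 to 455 in TAC-HDAC4-NT, 451 to 470 in TAC-luciferase and 417 to 427 in sham hearts. Of 7 measured, 5 were tested, and 1 rose and 1 fell in each comparison with sham. Ncam1, an adhesion molecule of nerve and muscle cells, lay at 7.12, 6.61 and 6.99 in TAC-HDAC4-NT, 7.24, 7.06 and 6.99 in TAC-luciferase and 6.53, 6.42 and 6.50 in sham hearts. All constricted hearts lay above all sham hearts, as for Uchl1. It rose by 0.42 in TAC-HDAC4-NT and by 0.61 in TAC-luciferase hearts (limma adjusted p 0.0317 and 0.00542), the first a call lost without any 1 of TAC-HDAC4-NT hearts 1 and 3 and the 3 sham hearts (up to 0.111). Gfra3, a receptor subunit for artemin, fell by 0.19 in both (0.0195 and 0.0154), the first a call lost without any 1 of TAC-HDAC4-NT hearts 1 and 2 and sham heart 1 (up to 0.07). The part of neurons and Schwann cells in the Uchl1 level was not tested.

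Among the chaperones and lipoprotein receptors grouped with Clu, Lrp8, a receptor for apolipoprotein E and clusterin, rose by 1.03 in TAC-HDAC4-NT and by 0.86 in TAC-luciferase hearts against sham (limma adjusted p 3.68e-05 and 9.33e-05). Its level was 6.97, 6.78 and 6.99 in TAC-HDAC4-NT, 6.77, 6.85 and 6.60 in TAC-luciferase and 5.86, 5.88 and 5.89 in sham hearts, with no overlap between constricted and sham hearts. Vldlr, a related receptor, fell by 0.41 and 0.56 in the same groups (0.00409 and 0.000664). Apoe rose by 0.30 in TAC-luciferase hearts (0.0332), a call lost without any 1 of TAC-HDAC4-NT heart 1, TAC-luciferase hearts 1 and 3 and sham hearts 1 and 2 (up to 0.111), and at 0.48 without TAC-luciferase hearts 2 and 3 (0.0124). Cryab, a small heat shock protein of muscle, stood at 0.04 between the constricted groups and at 0.03 and -0.01 against sham. In all, 1 of 11 tested genes rose and 1 fell in TAC-HDAC4-NT, and 2 rose and 1 fell in TAC-luciferase hearts, with no call between the constricted groups (0 at an unadjusted p under 0.05). Without sham heart 2, 3 rose in TAC-HDAC4-NT, and without TAC-luciferase heart 1, 2 did.

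The list of lipocalin 2, its receptors and partners holds receptors of lipocalin 2 and genes of iron handling. Slc40a1, which encodes ferroportin, the iron exporter, fell by 0.75 in TAC-HDAC4-NT and by 0.94 in TAC-luciferase hearts against sham (limma adjusted p 8.91e-05 and 2.97e-05). Tfrc, the transferrin receptor that imports iron, rose by 0.86 and 0.70 in the same groups (0.000456 and 0.0012). Hmox1, heme oxygenase, rose by 0.48 in TAC-luciferase hearts (0.0123) and Cp, ceruloplasmin, by 0.35 (0.0489), the second a call lost without any 1 of 7 arrays, every heart but TAC-HDAC4-NT hearts 2 and 3. Both calls were lost without TAC-luciferase hearts 2 and 3, at 0.27 for Hmox1 (0.122) and 0.32 for Cp (0.223). None was called between the constricted groups (2 of 6 at an unadjusted p under 0.05, and 1 called lower without TAC-luciferase heart 1). Counts against sham were 1 higher and 1 lower of 6 tested genes in TAC-HDAC4-NT, and 3 higher and 1 lower in TAC-luciferase hearts, which became 1 and 1 without TAC-luciferase hearts 2 and 3. Slc22a17, a receptor for lipocalin 2, was not called and stood at 0.09 between the constricted groups. Lrp2, another receptor, and Mmp9, the protease that lipocalin 2 binds, stayed below the filter, with means of 5.43 to 5.52 in the 3 groups.

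Neutrophils hold lipocalin 2 in their granules, and their markers were at the bottom of the range. None of 14 measured neutrophil markers lay above the filter value on every array, and none of the 3 tested was called by limma (0 at an unadjusted p under 0.05 between the constricted groups and 1 in each comparison with sham). Against sham, 1 was called higher in TAC-HDAC4-NT without TAC-HDAC4-NT heart 3, and 1 in TAC-luciferase without TAC-luciferase heart 3. Their summed linear level was 599 to 621 in TAC-HDAC4-NT, 612 to 653 in TAC-luciferase and 602 to 613 in sham hearts. TAC-luciferase heart 2, the highest for Lcn2, was also the highest for the mean of these markers, at 5.53. The other hearts had means of 5.41 to 5.46, and every heart's mean was below the filter value of 5.659. S100a8 averaged 5.49, 5.59 and 5.47 and S100a9 averaged 5.52, 5.58 and 5.53 in TAC-HDAC4-NT, TAC-luciferase and sham hearts, all below the filter value. Macrophage markers had a summed linear level of 3215 to 3562 in TAC-HDAC4-NT, 3299 to 4147 in TAC-luciferase and 2410 to 2648 in sham hearts. Of the 12, 6 rose in TAC-HDAC4-NT and 5 in TAC-luciferase hearts against sham, among them C1qb, a complement component, by 0.52 and 0.69, and none was called between the constricted groups (1 at an unadjusted p under 0.05, and 1 called lower without TAC-luciferase heart 1). The part of these cells in the Lcn2 levels was not tested.

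Genes of gp130 cytokine signalling and STAT3 targets include several of the acute phase. Of 17 tested, 4 rose and 2 fell in TAC-HDAC4-NT and 9 rose and 2 fell in TAC-luciferase hearts against sham, with medians of 0.11 and 0.54. The TAC-luciferase count of 9 ranged from 4 to 11 when 1 heart was left out. It was 5 without TAC-luciferase heart 2, 4 without any 1 of TAC-luciferase heart 3 and sham hearts 1 and 2, and 3 of 16 without TAC-luciferase hearts 2 and 3. Serpina3n, an acute-phase protease inhibitor, rose by 2.84 in TAC-HDAC4-NT and by 3.34 in TAC-luciferase hearts (limma adjusted p 0.000346 and 0.000139). Timp1, an inhibitor of matrix proteases, rose by 2.31 and 2.50, and Lbp, which binds bacterial lipopolysaccharide, by 1.39 and 1.42. Lifr, the receptor for leukemia inhibitory factor, fell by 0.78 and 0.89. Stat3 itself rose by 0.42 and 0.52 (0.00852 and 0.00265), the second 0.44 and not called without TAC-luciferase hearts 2 and 3 (0.0604), and Il6st, which encodes gp130, was not called, at 0.17 and 0.12.

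The pattern of Lcn2 over hearts can be set beside single targets. Serpina3n lay at 10.70, 10.33 and 10.23 in TAC-HDAC4-NT, 10.82, 11.30 and 10.65 in TAC-luciferase and 7.05, 7.29 and 8.42 in sham hearts, so all constricted hearts were high and sham heart 3 was the highest sham heart, as for Lcn2. Socs3, the feedback inhibitor induced by STAT3, lay at 6.08, 6.22 and 6.18 in TAC-HDAC4-NT, 6.16, 8.14 and 6.74 in TAC-luciferase and 6.02, 6.12 and 6.00 in sham hearts. Its high values were in TAC-luciferase hearts 2 and 3, and it was not called (-0.86 between the constricted groups, limma adjusted p 0.36). That value was -0.29 without TAC-luciferase heart 2, -1.29 without heart 1 and -0.0032 without hearts 2 and 3. In that comparison 14 of the 17 list genes lay below 0, with no call (5 at an unadjusted p under 0.05 in limma). Their median was -0.24 (-0.05 without TAC-luciferase hearts 2 and 3), beside 0.004 over all tested genes. Without TAC-luciferase heart 1, 4 of 16 were called lower.

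NF-kB pathway genes and targets rose in TAC-luciferase hearts against sham for 4 of 13 genes, and for none in TAC-HDAC4-NT hearts (1 at an unadjusted p under 0.05, and 1 called higher without TAC-luciferase heart 3). Whether the groups differ in these counts was not tested. The medians were -0.01 in TAC-HDAC4-NT and 0.19 in TAC-luciferase hearts, and 3 of 13 rose in TAC-luciferase without its hearts 2 and 3. The adhesion molecules Vcam1 and Icam1 rose by 0.58 and 0.59 in TAC-luciferase hearts (limma adjusted p 0.00108 and 0.00624). Nfkbiz, a nuclear regulator of NF-kB, which activates Lcn2 in mice, rose by 0.62 (0.00712), and by 0.26 without TAC-luciferase hearts 2 and 3 (0.0499). Birc3, an inhibitor of apoptosis, rose by 0.48 (0.0288), a call lost without any 1 of the 3 sham hearts (up to 0.0853). Its difference was 0.29 without TAC-luciferase heart 2 (0.0124), and 0.26 without hearts 2 and 3 (0.0647). Between the constricted groups 11 of 13 lay below 0, with no call and a median of -0.21, beside 0.004 over all tested genes. At an unadjusted p under 0.05 in limma there were 7 of 13, beside 1807 of all 12597 tested genes. Without TAC-luciferase heart 1, 3 of these NF-kB genes were called lower.

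**Figure D3:**
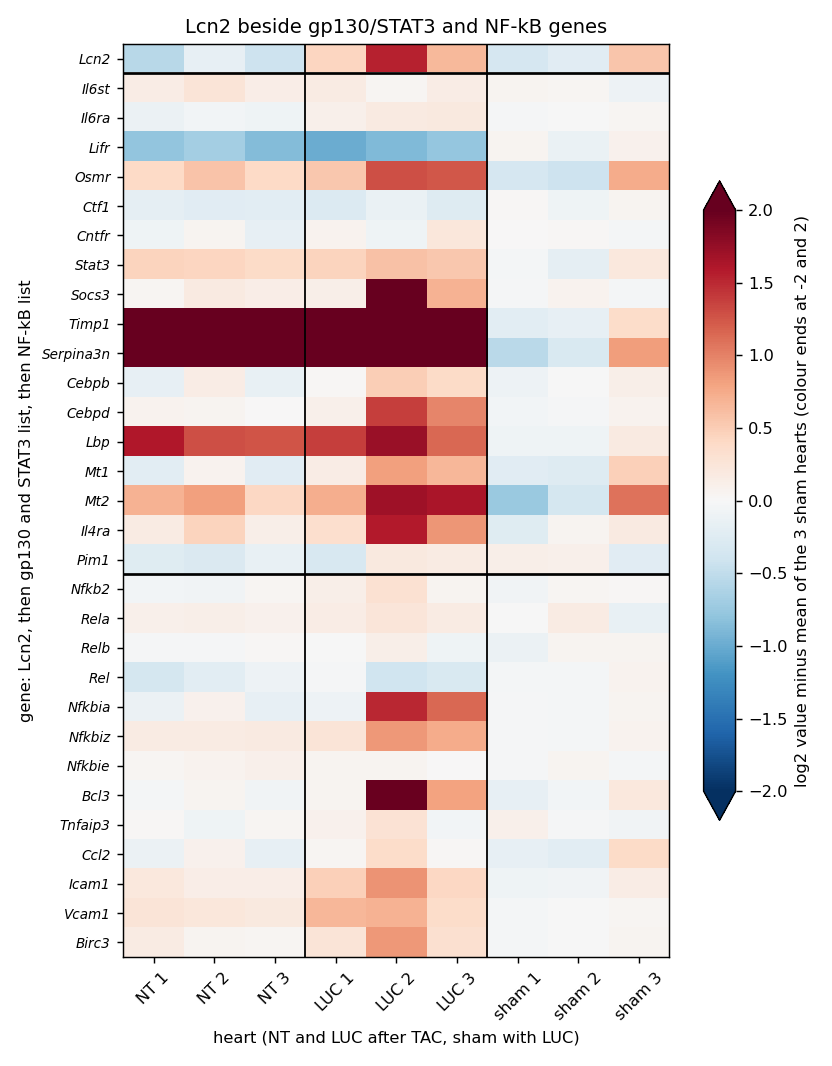
Log2 level minus the mean of the 3 sham hearts for Lcn2, the 17 tested gp130 and STAT3 genes and the 13 tested NF-kB genes (rows) in each of 9 hearts (columns), with colours ending at -2 and 2. Lcn2 is above the sham mean in every TAC-luciferase heart and below it in every TAC-HDAC4-NT heart. TAC-HDAC4-NT heart 2, at 6.80, still lies above sham hearts 1 and 2, at 6.64 and 6.75.

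The genes nearest to each of the 4 in profile were found by the root mean square difference of centred log2 levels over the 9 arrays, among 12118 genes. They were picked for likeness, so their differences are given with no test. Sprr1a was nearest to the matrix genes Cilp (0.423), Thbs4 (0.456), Postn (0.514), Mfap5 (0.573) and Mfap4 (0.603). Cilp lay at 8.83, 8.65 and 9.24 in TAC-HDAC4-NT, 9.07, 8.70 and 8.64 in TAC-luciferase and 5.62, 6.00 and 5.95 in sham hearts. Its TAC-luciferase heart 1 did not stand apart as that of Sprr1a did. Fibroblast markers, to which Postn belongs, had a summed linear level of 11925 to 12410 in TAC-HDAC4-NT, 11011 to 11299 in TAC-luciferase and 5921 to 6460 in sham hearts. Of 9 tested, 6 rose in each comparison with sham. The part of fibroblasts in the Sprr1a level was not tested.

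Uchl1 had neighbours at smaller distances, but the distance is not scaled to the size of a gene's own differences, which were smaller for Uchl1. The distance was 0.124 for Fstl3, a secreted inhibitor of activins, and 0.164 for Gpx3, the plasma glutathione peroxidase. It was 0.166 for Loxl3, 0.171 for Ube2c and 0.178 for Ccnd2. The TAC-luciferase differences of these neighbours from sham were 1.05 to 1.49 and their TAC-HDAC4-NT differences 0.93 to 1.28. Fstl3 lay at 8.08, 7.70 and 7.93 in TAC-HDAC4-NT, 8.26, 8.15 and 7.74 in TAC-luciferase and 6.49, 6.70 and 6.86 in sham hearts. The low spread of Clu brought Wipi1, Serinc2, Colgalt1, Crispld1 and Cfl2 within 0.065 to 0.072 of it.

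Lcn2 was nearest to Nr4a3, an orphan nuclear receptor, at 0.251, followed by Ms4a6d (0.257), Map3k6 (0.267), Hand2 (0.271) and Ell2 (0.277). Nr4a3 lay at 6.05, 6.25 and 6.30 in TAC-HDAC4-NT, 6.90, 8.47 and 7.77 in TAC-luciferase and 6.35, 6.80 and 6.97 in sham hearts. All 5 neighbours were highest in TAC-luciferase heart 2, as Lcn2 was, and all had sham heart 3 as the highest sham heart. Their differences between TAC-HDAC4-NT and TAC-luciferase were -1.52, -0.82, -1.14, -0.91 and -0.85 in the order given. They were -0.71, -0.46, -0.26, -0.36 and -0.42 without TAC-luciferase hearts 2 and 3.

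**Figure D4:**
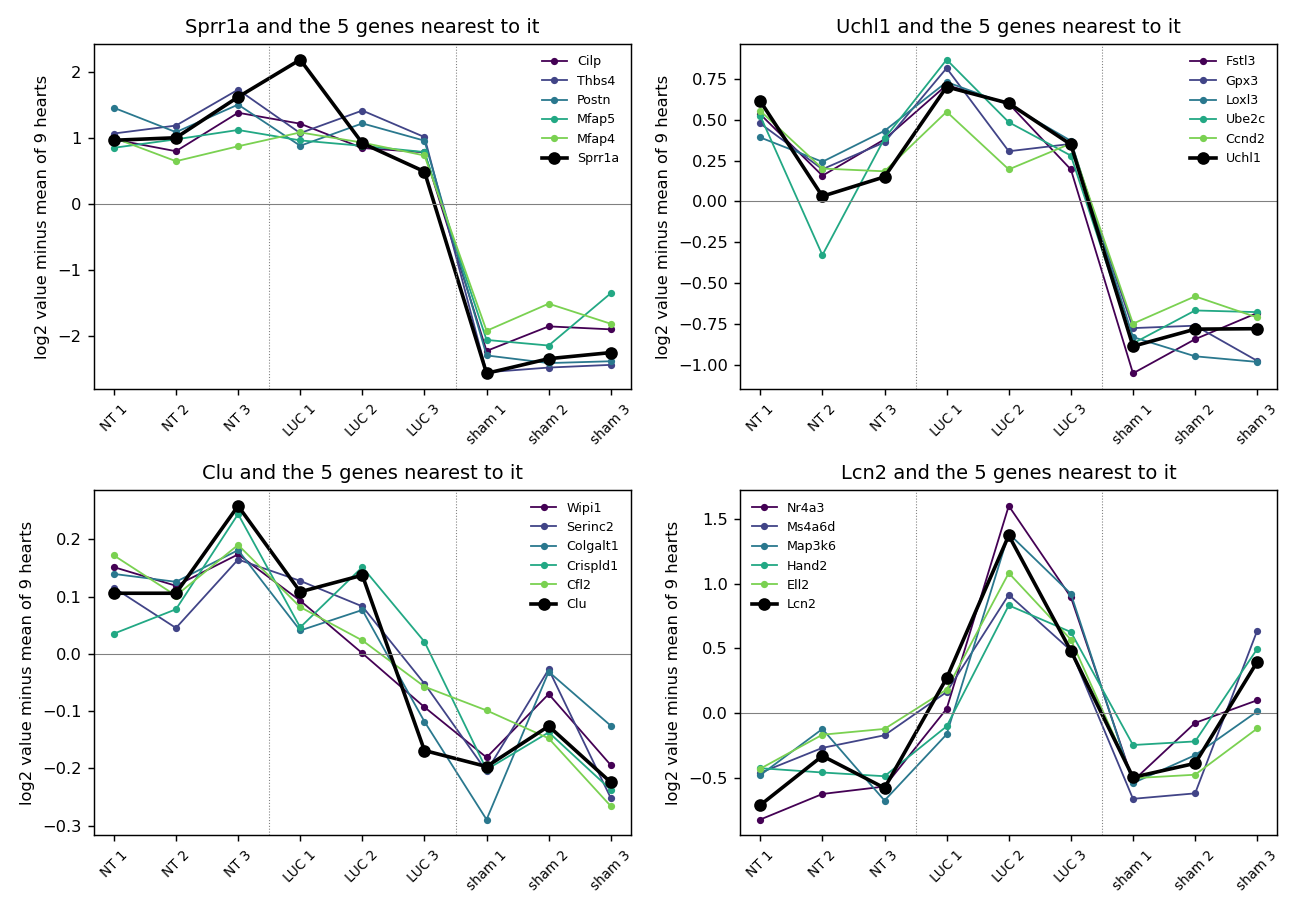
Centred log2 level of each of the 4 genes and its 5 nearest genes over the 9 hearts, 1 panel per gene. Sprr1a departs from its neighbours at TAC-luciferase heart 1, and Lcn2 and its neighbours peak at TAC-luciferase heart 2.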

How the data were processed

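RNA from 9 whole mouse hearts, 3 male animals per group per the labels, was measured on Affymetrix arrays. The deposited values are on a log2 scale and come from RMA run by the authors, as the submitters' processing notes list it. The sources used here give neither its version nor the probe set definitions. Sorted values were identical on all 9 arrays. RMA compresses low values, and no depth or detection p was used. Precision is limited by the number of arrays, with a median SE of 0.0697.

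Of 21225 probe sets, 20239 had 1 symbol in the platform annotation and 986 were unnamed here; all 20239 matched RefSeq gene IDs of GRCm38.p6. Genes with at least 3 of 9 arrays above the 40th percentile of all values were tested, which removed 7642. limma 3.58.1 in R 4.3.3 fitted 1 group-means model (6 residual and 3.23 prior degrees of freedom) and p-values were adjusted over the 12597 tested genes. Whether hearts were processed together is not given, so the spread within groups may hold processing as well as differences between animals. The p-values weigh group differences against that spread, pooled over the 3 groups. They cannot tell a processing difference between groups from a group difference. A summed linear level is the sum of 2 to the power of the log2 values. Figures used matplotlib 3.10.9 in Python 3.11.15. The test was checked on simulated data.

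The 4 genes, the gene lists and the settings were chosen with earlier results of these data known. Named genes were the 4, their 5 nearest profiles each, up to 4 called members per list and comparison with the smallest adjusted p, and 16 fixed names (Sprr1b, Sprr2a1, Sprr3, Uchl3, Uchl5, Slc22a17, Lrp2, Mmp9, Il6st, Stat3, Socs3, Hspb1, Cryab, S100a8, S100a9 and Tubb3). Sprr2a1 and Hspb1 were not matched in the annotation. Alternatives were no filter, a 60th percentile filter, cyclic loess, a trended and robust prior, array weights, 2 groups only, blocks by replicate number and by the first number of the sample code, and each heart left out. TAC-luciferase hearts 2 and 3 both left out, and a covariate (the mean of 4 atrial genes, Mybphl, Myl4, Myl7 and Sln), were added after seeing the data.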

Additional observations from a re-analysis of the deposited data

Results flagged for a closer look

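Lcn2 stood at -1.25 in TAC-HDAC4-NT against TAC-luciferase hearts (limma adjusted p 0.1). Each of the 3 TAC-HDAC4-NT hearts lay below the sham mean, by log2 differences of -0.55, -0.17 and -0.42, and each of the 3 TAC-luciferase hearts above it, by 0.43, 1.54 and 0.64. The group means lay on opposite sides of the sham mean. Without sham heart 3 the TAC-HDAC4-NT mean lay near the sham mean, at -0.10 (SE 0.30 with all 9 arrays), and the TAC-luciferase mean at 1.15. Single hearts did not all keep the order of the group means, since sham heart 3, at 7.53, was the highest sham heart. TAC-HDAC4-NT heart 2, at 6.80, lay above sham hearts 1 and 2, at 6.64 and 6.75. The differences from sham were not tested, since load chose the gene.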

How the results depend on the processing

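With 3 hearts per group and no array depth or detection call, any Sprr1a difference within its 95% interval remained compatible with the data. Of the 4 genes, Lcn2 was called in TAC-HDAC4-NT against TAC-luciferase with array weights (-1.47, adjusted p 0.0173) and with TAC-luciferase heart 1 left out, and not under the other settings. Leaving out 1 heart moved it between -1.47 and -0.92. The Sprr1a difference in that comparison changed sign, to 0.16 with array weights and 0.045 with the sample code as a random block, and ranged from -0.36 to 0.49 over single hearts left out. With TAC-luciferase hearts 2 and 3 out, differences from sham in TAC-luciferase were 4.58 for Sprr1a and 1.52 for Uchl1. The 32 genes called between the constricted groups became 10 with no filter, 103 with the 60th percentile filter, 75 with a trended and robust prior, 827 with array weights, 0 with 2 groups only (1868 at an unadjusted p under 0.05), 177 with the sample code block, 10 without TAC-luciferase hearts 2 and 3 and 7 with the atrial covariate. Leaving out 1 heart gave counts between 1, without either of TAC-HDAC4-NT hearts 1 and 2, and 692, where TAC-luciferase heart 1 was out. In TAC-luciferase against sham, 3283 became 1923 without TAC-luciferase hearts 2 and 3, and the share higher was 51.6% under cyclic loess against 42.8%. The replicate block gave 106 calls, with Lcn2 at -1.25 (adjusted p 0.0978). Same-numbered hearts correlated between -0.123 and 0.199 in their deviations, and differently numbered hearts between -0.25 and 0.221. With groups of 3 these correlations cannot decide whether the numbers pair the hearts. Some uncalled differences near 0 changed sign. Without TAC-luciferase hearts 2 and 3, TAC-luciferase minus sham was -0.11 for Hand2, 0.057 for Slc22a17, 0.055 for Cryab and -0.015 for Tubb3, and TAC-HDAC4-NT minus TAC-luciferase was 0.044 for Uchl5, -0.0073 for Slc22a17 and -0.026 for Cryab. With the atrial covariate Uchl3 stood at 0.0017 in TAC-HDAC4-NT against sham, and under cyclic loess Cryab at 0.041 in TAC-luciferase against sham. Over single hearts left out, TAC-HDAC4-NT minus sham ranged from -0.31 to 0.34 for Ms4a6d, -0.29 to 0.0070 for Map3k6, -0.093 to 0.081 for Uchl3, -0.0067 to 0.081 for Slc22a17 and -0.049 to 0.079 for Cryab. TAC-luciferase minus sham ranged from -0.083 to 0.015 for Uchl5, -0.092 to 0.036 for Cryab and -0.043 to 0.094 for Tubb3. The cause of these changes was not tested.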
